A study of Mus musculus with 180 samples.

Results

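The libraries described here are the thymus libraries of wild-type mice given lipopolysaccharide (LPS), the outer membrane component of Gram-negative bacteria, and of wild-type mice given phosphate-buffered saline (PBS). They were chosen by their labels alone, and they are 8 of the 180 libraries of the series, with 4 mice in each group and 1 thymus library per mouse. The LPS group consists of mice 5 to 8, which were C57BL/6J mice that received 5 mg/kg LPS. The PBS group consists of mice 1 to 4, which were C57BL/6J mice that received PBS. All were female, were 6 weeks old, carried no engineered allele and were perfused with PBS and EDTA, and their thymus was collected at 12 hours. Another set of 4 thymus libraries, from B6.129S-Tnftm1Gkl/J mice that lack TNF and received the same LPS dose, entered the estimate of the spread, the filter on low genes, the principal component analysis and the check of pairing by mouse, and no comparison. Spleen and inguinal lymph node libraries of the same LPS and PBS mice served to show where the thymus differed. Spleen and lymph node libraries of the TNF-deficient mice entered the spread, the filter and the pairing check there, and no contrast. RNA came from the whole organ, so each value mixes thymocytes with epithelium, vessels, macrophages and dendritic cells, and fewer cells of a type and less RNA per cell cannot be told apart.

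The thymus is the organ in which T cells form. Most of its cells are cortical thymocytes that carry both CD4 and CD8, rearrange the T cell receptor α chain with the RAG recombinase and depend on the cortical epithelium, while cells that pass selection move to the medulla and leave through CCR7 and sphingosine phosphate signals. Cortical thymocytes are sensitive to glucocorticoids, which the adrenal gland releases during endotoxaemia, and the thymus is known to shrink in acute infection. LPS itself is sensed through CD14 and TLR4, mainly by myeloid cells, and induces NF-kB targets, such as chemokines, and type I interferon with its target genes.

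Values are the authors' deposited signal, a count scaled per library, and come from reads that tag the 3′ end of polyadenylated RNA. Behind them stood 625878 to 931123 counts per LPS library and 654330 to 845518 per PBS library, so 1 count is worth a signal of 0.784 to 1.13 in the LPS libraries and 0.859 to 1.08 in the PBS libraries, and a signal of a few units rests on a few counts. Values per library are given in the order of mice 5 to 8 for LPS and 1 to 4 for PBS; means carry the SD over 4 mice, and log2 changes (LPS minus PBS) carry the SE of the fit. In a principal component analysis of the 12 thymus libraries the first component held 26.2% of the variance, and LPS libraries lay at 18.38 to 27.19 and PBS libraries at -41.33 to -36.06. On the second component, which held 11.6% of the variance, LPS mouse 7 lay at 40.87, apart from the other LPS mice at 2.53 to 16.27. The labelled organ was borne out by its markers. Rag1, a recombinase subunit, averaged 1049 ± 49.4 in PBS thymus, where the spleen of the same mice had 4.5 ± 3.16 and the lymph node 4.82 ± 2.06, on tables scaled separately by tissue. The high endothelial venule gene Glycam1, a lymph node marker, averaged 63.1 ± 13.9 in LPS thymus and 54.2 ± 7.96 in PBS thymus, against 3216 ± 484 in PBS lymph node. The summed signal of markers of tissues that adjoin the thymus overlapped between the groups, with 957 to 1239 in LPS libraries and 1208 to 1726 in PBS libraries for 19 B cell genes, 488 to 621 in LPS and 454 to 531 in PBS libraries for 10 lymph node stroma genes, and 933 to 1218 in LPS and 822 to 1131 in PBS libraries for 15 adipocyte genes.

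Of 13321 genes tested with limma at a Benjamini-Hochberg adjusted p below 0.05, 1292 were higher in LPS thymus (9.7%) and 1176 were lower (8.83%), together 18.5%. The counts of list members that rose or fell, given below, stand beside these shares of all genes. The higher genes changed more, with 551 up by at least 1 on the log2 scale and 86 by at least 2, against 228 and 11 among the lower genes. The median log2 change of all genes tested was -0.002. Every LPS library lay above every PBS library for 10.0% of the genes tested, and below for 9.23%. Most genes named below were chosen in part for such separation. In outline, most transcripts of double-positive thymocytes and proliferation and several of cortical epithelium fell, and most of the interferon response, chemokines, glucocorticoid response and thymocyte maturation rose.

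**Figure D1:**
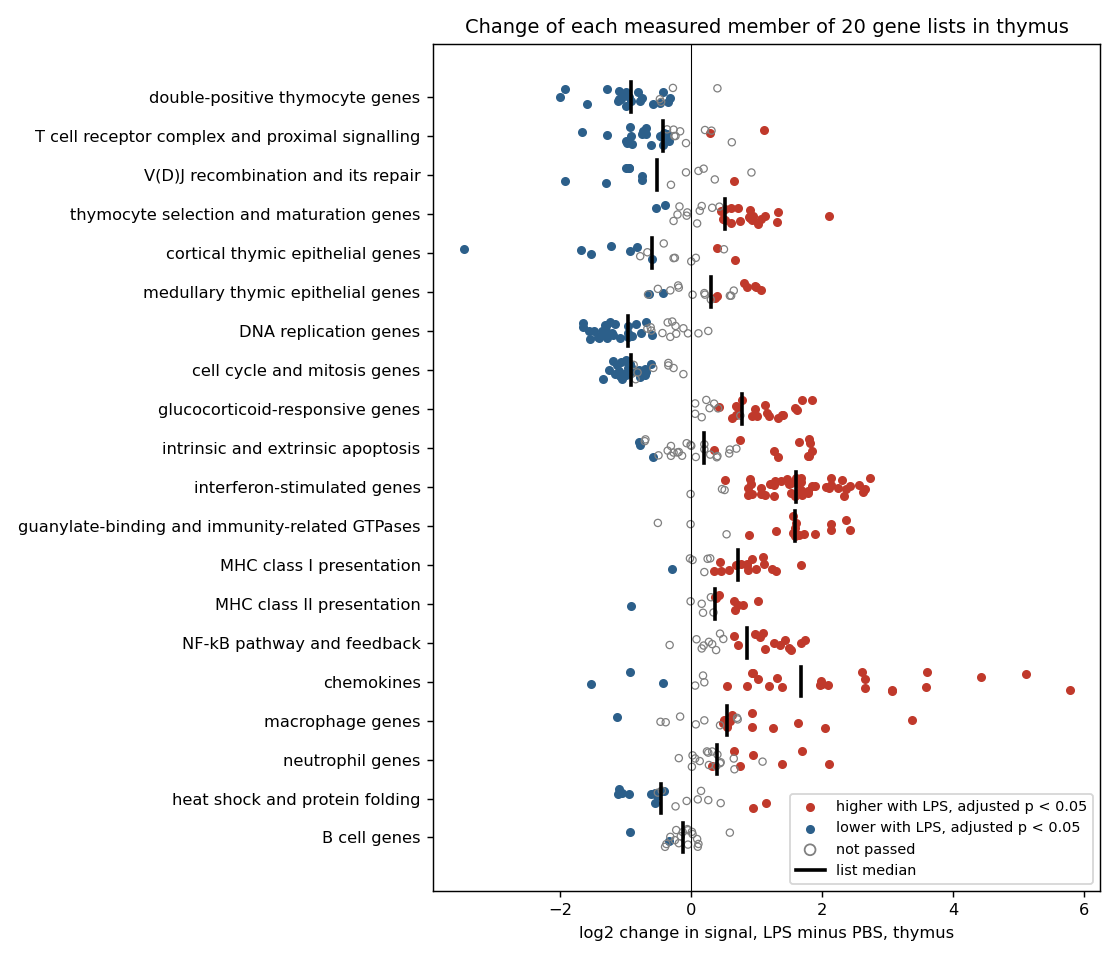
Log2 change in signal between LPS and PBS thymus (x axis) for each measured member of 20 gene lists (rows). Red points were called higher, blue points were called lower, open points did not pass, and black ticks mark list medians: the double-positive thymocyte, DNA replication and mitosis lists lie left of 0 with medians of -0.92, -0.96 and -0.92, and the interferon-stimulated list lies right of it with a median of 1.6.

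Double-positive thymocyte transcripts fell with few exceptions. Of 25 genes of the list, 21 fell and the other 4 did not pass, against 8.83% of all genes, and the median log2 change was -0.92. Dntt encodes terminal transferase, which adds untemplated nucleotides to rearranging receptor genes; its signal was 176, 274, 149.5 and 155 in the LPS mice, against 720.5, 685, 692 and 699.8 in the PBS mice. The LPS values lay below every PBS value (-1.93 ± 0.12 log2, adjusted p = 5.7e-18). The recombinase genes fell less. Rag1 (chr2:101638282-101649501, minus strand, GRCm38) had 573, 704, 452 and 477 in LPS thymus, against 1041, 1017, 1122 and 1018 in PBS thymus (-0.95 ± 0.10 log2, adjusted p = 1e-10), and Rag2 changed by -0.99 ± 0.16 log2, adjusted p = 1.9e-06. LPS mouse 6 had the highest LPS value of Dntt, Rag1 and Rag2, and no LPS value reached the lowest PBS value of these genes.

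The coreceptor genes were unequal. Cd8a, the α chain of the CD8 coreceptor, had 331, 412, 334 and 323 in LPS thymus, against 884, 830.2, 859.9 and 819.6 in PBS thymus (-1.28 ± 0.09 log2, adjusted p = 2.1e-16), and Cd8b1, its β chain, changed by -1.11 ± 0.11 log2, adjusted p = 1.9e-11. Cd4 had 194, 252, 192 and 179.6 in LPS thymus, against 243, 287, 273 and 239 in PBS thymus; the groups overlapped, since LPS mouse 6 exceeded PBS mice 1 and 4, and the change was smaller (-0.36 ± 0.10 log2, adjusted p = 0.011). The call for Cd4 was lost without LPS mouse 8 and without PBS mouse 2. Tcf7, a transcription factor of the T lineage, fell (-0.92 ± 0.10 log2, adjusted p = 6e-10), as did Bcl11b, a T lineage commitment factor (-1.32 ± 0.11 log2, adjusted p = 4.5e-14). Among 29 transcription factors of T cell differentiation 11 fell (37.9%) and 3 rose (10.3%, near the 9.7% of all genes). The risers included Id2 (0.51 ± 0.12 log2, adjusted p = 0.00087) and Ets1 (0.44 ± 0.09 log2, adjusted p = 0.00033).

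Most receptor signalling genes fell. Of 29 genes of the T cell receptor complex and its proximal signalling, 18 fell (62.1%, against 8.83% of all genes). Another 2 rose (6.9%, against 9.7% of all genes), and the median log2 change was -0.43. Thy1, the surface glycoprotein that marks T lineage cells, had 339.7, 518, 282 and 296 in LPS thymus, against 1187, 1122, 1113 and 1012 in PBS thymus (-1.67 ± 0.12 log2, adjusted p = 2.1e-16). Lck, the kinase bound to CD4 and CD8, had 306, 372, 285 and 277 in LPS thymus, against 643, 604, 590.1 and 640.4 in PBS thymus (-1.0 ± 0.09 log2, adjusted p = 3e-12). The groups were separate for each gene. Cd3e fell less (-0.43 ± 0.11 log2, adjusted p = 0.0035). The ζ chain gene Cd247 rose (0.28 ± 0.09 log2, adjusted p = 0.029), and its call was lost when any 1 LPS mouse, PBS mouse 1 or PBS mouse 4 was left out.

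Of 20 genes of early, double-negative thymocytes, 5 fell, against 8.83% of all genes, and 13 did not pass. Another 2 rose (10.0%, near the 9.7% of all genes), and the median log2 change was -0.16. Ptcra, the pre-T cell receptor α chain that pairs with a new β chain, had 5.61, 7.84, 9.06 and 2.02 in LPS thymus, against 39.5, 46.6, 29.3 and 25.9 in PBS thymus (-2.45 ± 0.29 log2, adjusted p = 3.2e-09). The Notch target Dtx1 fell (-1.21 ± 0.33 log2, adjusted p = 0.0065), and Notch3 changed by -0.74 ± 0.24 log2, adjusted p = 0.024, a call lost without LPS mouse 8, without any 1 of PBS mice 1, 2 and 3, and by DESeq2. Il2ra, the interleukin 2 receptor α chain that early thymocytes, regulatory T cells and activated T cells all carry, rose (1.79 ± 0.17 log2, adjusted p = 3.5e-12), as did the myeloid transcription factor Spi1 (0.9 ± 0.19 log2, adjusted p = 0.00033). The Notch ligand Jag1, for which the signal was 57.1, 64.3, 55.5 and 58.5 in LPS thymus, against 16.3, 23.8, 20.4 and 35.6 in PBS thymus, also rose (1.31 ± 0.18 log2, adjusted p = 6e-08).

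Transcripts of cells past selection moved opposite to the cortical ones. Of 31 genes of selection and maturation, 19 rose, against 9.7% of all genes, 2 fell, and the median log2 change was 0.51. Ccr7, the chemokine receptor that guides selected thymocytes to the medulla and is also carried by mature dendritic cells, had 359, 271, 305 and 379 in LPS thymus, against 124, 137, 132 and 124 in PBS thymus (1.33 ± 0.11 log2, adjusted p = 6.1e-14). Il7r, the interleukin 7 receptor α chain, absent from most double-positive cells and regained after selection, had 66.4, 95.6, 80.4 and 94.8 in LPS thymus, against 42.9, 37.3, 36.4 and 34.6 in PBS thymus (1.13 ± 0.15 log2, adjusted p = 2.9e-08). For both genes every LPS value exceeded every PBS value. Slfn1 and Slfn2, which are linked to T cell quiescence and are also interferon-inducible, rose by 2.10 and 1.31 on the log2 scale, while Id3, induced by receptor signalling, fell (-0.54 ± 0.12 log2, adjusted p = 0.0005). Of 13 regulatory T cell genes 6 rose. The inhibitory receptor gene Ctla4 had 41.2, 35.3, 52.1 and 48.4 in LPS thymus, against 7.73, 4.14, 5.32 and 5.4 in PBS thymus (2.78 ± 0.24 log2, adjusted p = 2e-13), and Tnfrsf4 changed by 1.08 ± 0.24 log2, adjusted p = 0.00072. Nr4a1 and Egr1, immediate-early genes, and H2-K1, a class I gene, were also among the risers of the selection list, and 17 of 25 AP-1 and immediate-early genes rose in the same libraries; the part of those responses in the list's rise was not tested.

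Cortical epithelium lost its signature transcripts to different degrees. Of 17 cortical epithelial genes 7 fell (41.2%, against 8.83% of all genes) and 2 rose (11.8%, near the 9.7% of all genes). Their median log2 change was -0.60. The largest log2 fall of any gene tested was that of Psmb11 (chr14:54621433-54629556, plus strand, GRCm38). It encodes the thymoproteasome subunit known from cortical epithelium, which shapes the peptides that select CD8 T cells. It had 4.68, 7.05, 2.26 and 6.05 in LPS thymus, against 72.1, 58, 61.2 and 59.4 in PBS thymus, and its mean was 5.01 ± 2.07 in LPS thymus and 62.7 ± 6.44 in PBS thymus, n = 4 each (-3.48 ± 0.30 log2, adjusted p = 2.1e-13). The LPS values equal 2 to 9 counts a library. Tbata, a regulator of epithelial growth in thymus, had 145, 145, 189 and 166 in LPS thymus, against 584, 533, 538 and 428 in PBS thymus (-1.68 ± 0.11 log2, adjusted p = 6.9e-18). Ccl25, the chemokine that attracts CCR9-positive progenitors and thymocytes, had 88, 87.8, 98.5 and 99.9 in LPS thymus, against 301, 282, 268 and 238 in PBS thymus (-1.53 ± 0.14 log2, adjusted p = 2.2e-12). For these 3 genes the groups lay far apart relative to their own spread.

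Other cortical genes fell less. Pax1, a transcription factor of the pharyngeal pouch from which the epithelium derives, changed by -1.23 ± 0.28 log2, adjusted p = 0.00083, and Cxcl12, the ligand of CXCR4 made by cortical epithelium and fibroblasts, by -0.93 ± 0.12 log2, adjusted p = 8.7e-09. Ctsl, the lysosomal protease that cuts the invariant chain in cortical epithelium and is also made by macrophages, rose (0.67 ± 0.09 log2, adjusted p = 1.3e-07), and the epithelial adhesion gene Epcam rose slightly (0.39 ± 0.12 log2, adjusted p = 0.014), a call lost without PBS mouse 3. Of 21 medullary epithelial genes 7 rose (33.3%, against 9.7% of all genes) and 2 fell (9.5%, near the 8.83% of all genes), with a median of 0.30. Without LPS mouse 8 there were 4 risers, and DESeq2 called neither fall. The risers included Tnfrsf11a, the receptor RANK that drives medullary epithelial growth (1.07 ± 0.31 log2, adjusted p = 0.011, lost without PBS mouse 3), and Cd40 and Cd80, which dendritic and B cells carry too (0.99 ± 0.22 log2, adjusted p = 0.00048 and 0.98 ± 0.29 log2, adjusted p = 0.012; Cd80 was lost without LPS mouse 8). The epithelial regulators Foxn1 and Aire are not analysed here.

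**Figure D2:**
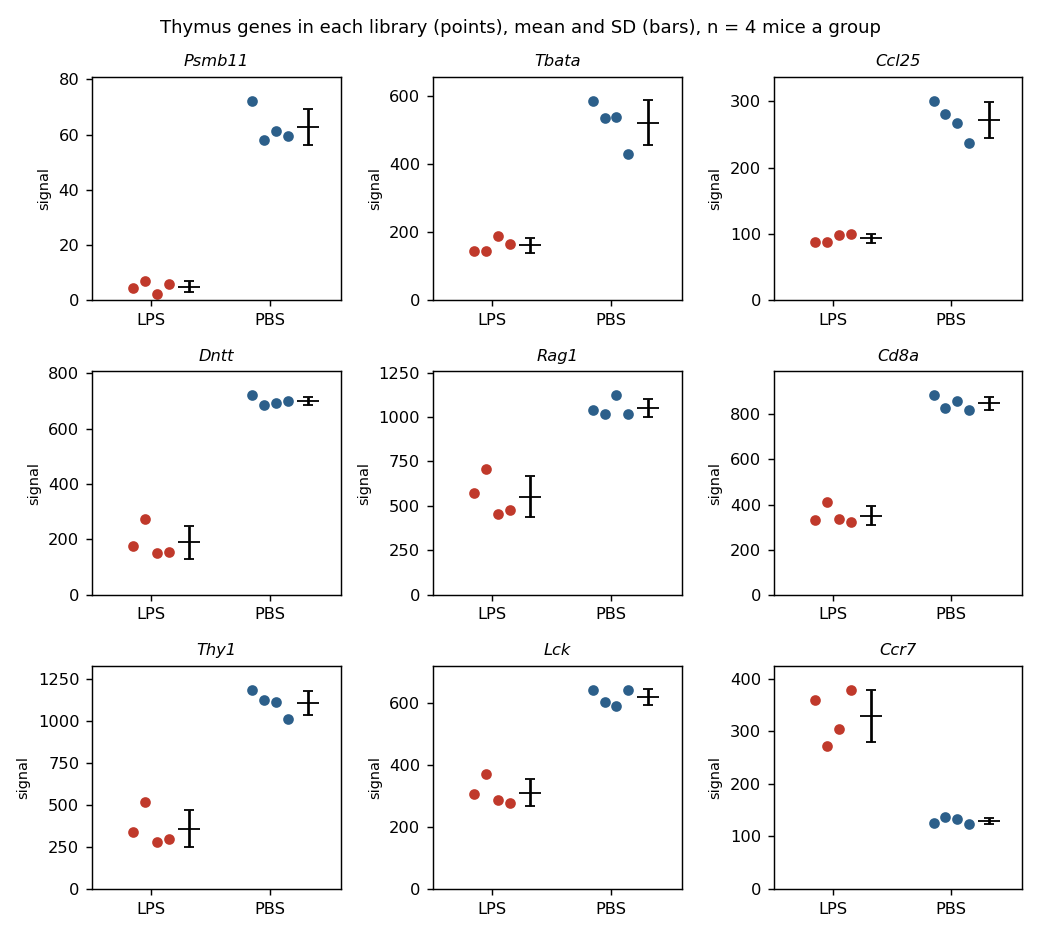
Signal (y axis, from 0) of 9 thymus genes in each LPS and PBS library (points), with the mean and SD beside each group of 4 mice. The LPS values of the epithelial genes Psmb11, Tbata and Ccl25 and of the thymocyte genes Dntt, Rag1, Cd8a, Thy1 and Lck all lie below the PBS values, and those of Ccr7 lie above.

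Proliferation genes fell. Of 39 DNA replication genes 26 fell and 13 did not pass (median -0.96), and of 32 mitosis genes 24 fell and 8 did not pass (median -0.92), against 8.83% of all genes. Uhrf1, which maintains DNA methylation behind the fork, had 32.8, 30.6, 51 and 35.3 in LPS thymus, against 149, 132, 97.6 and 98.3 in PBS thymus (-1.65 ± 0.17 log2, adjusted p = 1.2e-10). Dut, which keeps uracil out of DNA, changed by -1.65 ± 0.13 log2, adjusted p = 1.3e-14, the helicase subunit gene Mcm2 by -1.54 ± 0.18 log2, adjusted p = 1.7e-09, and the polymerase gene Pola1 by -1.56 ± 0.29 log2, adjusted p = 4.6e-05. Cdca7, a chromatin factor expressed in dividing lymphocytes, was among the 15 genes with the largest falls. It had 29.9, 38.4, 41.9 and 29.2 in LPS thymus, against 208, 185, 170.4 and 215 in PBS thymus, with no overlap (-2.46 ± 0.14 log2, adjusted p = 3.7e-19). Mki67, the proliferation marker, changed by -0.97 ± 0.15 log2, adjusted p = 1.8e-06, and the spindle gene Nusap1 and the cyclin gene Ccna2 changed by -1.35 and -1.25 on the log2 scale. Hmgb2, a chromatin protein that assists the RAG recombinase and is high in dividing cells, had 439.8, 438, 503 and 446 in LPS thymus, against 1282, 1154, 1003 and 1072 in PBS thymus. Of 17 inhibitors of the cell cycle and quiescence genes 6 rose (35.3%) and 2 fell (11.8%, near the 8.83% of all genes). The risers included Klf6 (1.09 ± 0.13 log2, adjusted p = 1.2e-09), Txnip (0.93 ± 0.09 log2, adjusted p = 3.5e-12) and the p21 gene Cdkn1a (0.71 ± 0.14 log2, adjusted p = 0.00016).

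Most genes of glucocorticoid response rose. Of 27 glucocorticoid-responsive genes 19 rose and 8 did not pass, against 9.7% of all genes, with a median log2 change of 0.77; several of them also respond to LPS or cytokines. Tsc22d3, which encodes the glucocorticoid-induced leucine zipper GILZ, had 916, 972, 779 and 843 in LPS thymus, against 314, 289.9, 348 and 404 in PBS thymus (1.38 ± 0.09 log2, adjusted p = 1e-16). Dusp1, the phosphatase that limits MAP kinases, changed by 1.59 ± 0.16 log2, adjusted p = 2.7e-11, and Cebpd, an acute-phase transcription factor, by 1.61 ± 0.15 log2, adjusted p = 3.1e-12. Nr3c1, the glucocorticoid receptor, rose slightly, with 108, 122, 111 and 102 in LPS thymus, against 86.7, 79.7, 75.4 and 85.3 in PBS thymus (0.43 ± 0.13 log2, adjusted p = 0.01). The metallothionein gene Mt2, which glucocorticoids and zinc induce, had 1360, 1006, 1496 and 1417 in LPS thymus, against 353, 351, 347 and 414 in PBS thymus (1.83 ± 0.10 log2, adjusted p = 2.1e-20).

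Of 35 genes of the intrinsic and extrinsic apoptosis pathways 10 rose (28.6%, against 9.7% of all genes) and 3 fell (8.6%, near the 8.83% of all genes). The median was 0.20, so the change lay in some members. Bcl2l11 encodes BIM, the BH3-only protein that kills thymocytes in negative selection and after glucocorticoids. It had 188, 168, 188 and 176 in LPS thymus, against 53.2, 42.4, 61.2 and 43.2 in PBS thymus, with groups well apart (1.84 ± 0.12 log2, adjusted p = 7e-17). Bbc3, which encodes the BH3-only protein PUMA, had 69.2, 68.2, 101 and 63.5 in LPS thymus, against 18.9, 14.5, 22.2 and 31.3 in PBS thymus (1.78 ± 0.18 log2, adjusted p = 3.1e-11), and Pmaip1, which encodes NOXA, changed by 1.26 ± 0.34 log2, adjusted p = 0.0051, a call lost without PBS mouse 1. Bcl2l1 encodes BCL-XL, which protects double-positive cells, and it fell (-0.59 ± 0.14 log2, adjusted p = 0.0013). The anti-apoptotic genes Bcl2a1b and Bcl2a1d, near-identical copies whose reads may have been split between them, both rose, by 1.81 and 1.80 on the log2 scale. Of 20 p53 target genes 4 rose (20.0%) and 1 fell (5.0%). Bbc3, Pmaip1 and Cdkn1a were 3 of the risers and Plk2 the fourth (2.02 ± 0.26 log2, adjusted p = 2.2e-08). Of 29 genes of dead cell recognition and clearance 11 rose (37.9%) and 2 fell (6.9%, against 8.83% of all genes). Dnase1l3, a nuclease of macrophages and dendritic cells that digests DNA in microparticles, had 265, 210.0, 226 and 275 in LPS thymus, against 61.8, 82.8, 69.2 and 55.1 in PBS thymus (1.85 ± 0.13 log2, adjusted p = 2.1e-16), and Anxa1, a glucocorticoid-induced protein, changed by 1.62 ± 0.12 log2, adjusted p = 7.3e-16. The bridging molecule gene Gas6 and the integrin gene Itgb5 changed by -0.8 and -1.18 on the log2 scale.

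**Figure D3:**
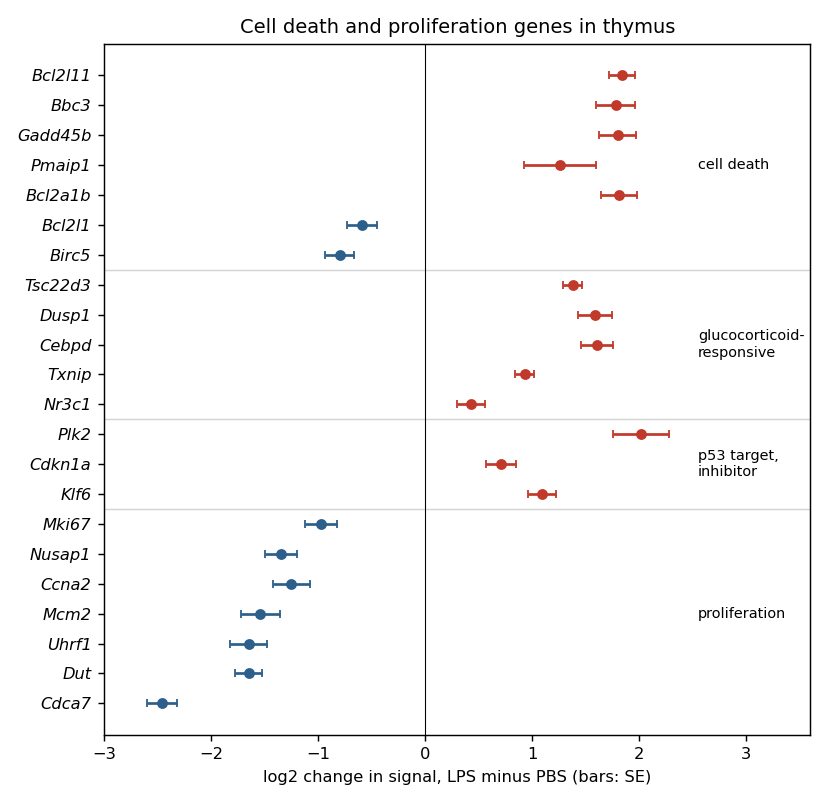
Log2 change in signal between LPS and PBS thymus (x axis, bars are the SE of the limma fit) for genes of cell death, glucocorticoid response, p53 targets and cell cycle inhibitors, and proliferation (rows). Bcl2l11, Bbc3 and Tsc22d3 lie right of 0 at 1.84, 1.78 and 1.38, Bcl2l1 lies left of it at -0.59, and Cdca7 lies farthest left at -2.46.

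Chemokine genes held the largest changes. Of 28 chemokine genes 22 rose (78.6%) and 3 fell (10.7%, near the 8.83% of all genes), with a median of 1.67. Ccl3 and Ccl4, chemokines made by activated macrophages and lymphocytes, lie beside each other on chromosome 11 and had the largest log2 changes of all. Ccl3 had 94.5, 129, 55.5 and 104 in LPS thymus, against 0.859, 1.03, 0 and 1.08 in PBS thymus, where the 4 libraries held 3 counts together (5.79 ± 0.29 log2, adjusted p = 1.1e-21). The LPS to PBS ratio of its counts per library total was 136 (95% exact interval 46.1 to 661, for counting error only). Ccl4 had 269.5, 283, 168 and 309 in LPS thymus, against 6.01, 6.21, 5.32 and 7.56 in PBS thymus (5.12 ± 0.18 log2, adjusted p = 3.4e-27). Cxcl2, which recruits neutrophils, had 176, 208, 96.2 and 122 in LPS thymus, against 6.01, 4.14, 7.99 and 5.4 in PBS thymus (4.43 ± 0.23 log2, adjusted p = 2e-21). LPS mouse 7 had the lowest LPS value of all 3 genes, and it still exceeded the highest PBS value of each. The monocyte attractants Ccl7 and Ccl12 rose by 3.6 and 3.59 on the log2 scale, and Ccl5, which had 1543, 1091, 1268 and 1570 in LPS thymus, against 200.1, 199.8, 232 and 220.3 in PBS thymus, rose by 2.66. Ccl17 and Ccl22 are made by mature dendritic cells. Ccl17 had 31.8, 20.4, 55.5 and 43.4 in LPS thymus, against 4.29, 4.14, 5.32 and 5.4 in PBS thymus (2.66 ± 0.27 log2, adjusted p = 5.3e-11), and Ccl22 changed by 2.0 ± 0.18 log2, adjusted p = 9.5e-13. The falls were those of Ccl25 and Cxcl12, given above, and of the medullary chemokine gene Ccl21a (-0.43 ± 0.13 log2, adjusted p = 0.014), whose call was lost without any 1 of LPS mice 5, 7 and 8, without PBS mouse 3 and by DESeq2.

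Of 26 cytokine and growth factor genes 14 rose, or 9 by DESeq2, and the other 12 did not pass. Il1a had 44.9, 56.4, 19.2 and 39.3 in LPS thymus, against 0, 0, 0 and 1.08 in PBS thymus, where the 4 libraries held 1 count (5.0 ± 0.34 log2, adjusted p = 1.1e-16); the ratio of its counts per library total was 171 (95% exact interval 30.4 to 6810). Il1b had 69.2, 83.1, 51 and 52.5 in LPS thymus, against 6.87, 8.28, 7.99 and 2.16 in PBS thymus (3.24 ± 0.26 log2, adjusted p = 2.3e-14). Tnf had 43, 75.2, 32.8 and 48.4 in LPS thymus, against 4.29, 5.18, 7.1 and 10.8 in PBS thymus (2.7 ± 0.23 log2, adjusted p = 8.9e-14), and the groups were separate for these 3 cytokines. Csf3, the neutrophil growth factor, had 47.7, 35.3, 35.1 and 46.4 in LPS thymus, against 4.29, 4.14, 3.55 and 5.4 in PBS thymus (2.97 ± 0.27 log2, adjusted p = 1.5e-12), and Il6, an inducer of the acute phase, changed by 2.48 ± 0.42 log2, adjusted p = 8.6e-06. Of 22 genes of the NF-kB pathway and its feedback 13 rose, including the A20 gene Tnfaip3 (1.74 ± 0.11 log2, adjusted p = 2.9e-17). Of 20 genes of LPS sensing 6 rose, among them the coreceptor gene Cd14 (2.86 ± 0.17 log2, adjusted p = 1.9e-18) and Acod1, which makes itaconate in activated macrophages (3.37 ± 0.35 log2, adjusted p = 7e-11). The other 14 genes of LPS sensing did not pass, and the receptor gene Tlr4 was among them. Socs3, a feedback inhibitor of cytokine signalling, was among 12 of 22 JAK-STAT genes that rose (1.95 ± 0.19 log2, adjusted p = 5.3e-12).

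Interferon-stimulated genes rose almost as a whole. Of 46 genes of the list 43 rose and 3 did not pass, against 9.7% of all genes, with a median log2 change of 1.6. Of 18 guanylate-binding proteins and immunity-related GTPases, which attack vacuoles of intracellular microbes, 15 rose (median 1.59). The counts stayed at 43 to 44 and at 15 with any 1 mouse left out. Zbp1, a sensor of Z-form nucleic acid, had 239.5, 174, 240.0 and 303 in LPS thymus, against 33.5, 33.1, 39.9 and 32.4 in PBS thymus (2.73 ± 0.13 log2, adjusted p = 1.3e-22). Ifit1, which binds viral RNA that lacks a cap methyl group, had 268, 208, 219.6 and 356 in LPS thymus, against 40.4, 39.3, 35.5 and 46.4 in PBS thymus (2.65 ± 0.13 log2, adjusted p = 1.8e-22). Tgtp2, a GTPase with a near-identical copy Tgtp1, had 199, 119, 164 and 247 in LPS thymus, against 32.6, 32.1, 31.1 and 37.8 in PBS thymus (2.37 ± 0.15 log2, adjusted p = 3.2e-18). In all 3 genes LPS mouse 6 was the lowest and LPS mouse 8 the highest of the LPS mice, and no value of the groups overlapped.

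The promoter windows of these genes were read from RefSeq (GRCm38.p6), from 250 bases before to 50 bases after the transcript start, and searched on both strands for the core of the interferon-stimulated response element, spelled GAAA, any 2 bases, GAAA. The core was in 9.2% of 1243 windows of genes called higher and in 15.0% of 479 windows of those higher by at least 1 on the log2 scale. It was in 2.7% of 1171 windows of genes called lower and in 3.3% of 12820 windows of all genes tested. Of the interferon-stimulated list 21 of 45 windows held it, and of the GTPase list 9 of 11. A STAT site core, TTCNNNGAA, was in 9.8%, 6.7% and 6.7% of the windows of higher, lower and all genes tested, and an NF-kB site core, spelled GGG, any 5 bases, CC, in 69.3%, 66.2% and 65.7%. Windows were at hand for 974 of the 1292 higher genes, 922 of the 1176 lower genes and 9991 of all 13321. Below are windows of Ifit1, of Tgtp2 and of Fcgr4, an Fc receptor gene of monocytes on neither of these lists (1.66 ± 0.20 log2, adjusted p = 4.4e-09), 5′ to 3′ on the strand of the gene, shown because they let the core be read beside genes that rose. Capitals mark the response element core, which reads on the opposite strand in Ifit1 and on the printed strand in Tgtp2 and Fcgr4. It begins at positions -104 and -85 from the start in Ifit1, -70 in Tgtp2 and -73 in Fcgr4, and overlaps neither of the other cores. A match describes letters and not a bound site.
Ifit1 (chr19:34640639-34640938, plus strand): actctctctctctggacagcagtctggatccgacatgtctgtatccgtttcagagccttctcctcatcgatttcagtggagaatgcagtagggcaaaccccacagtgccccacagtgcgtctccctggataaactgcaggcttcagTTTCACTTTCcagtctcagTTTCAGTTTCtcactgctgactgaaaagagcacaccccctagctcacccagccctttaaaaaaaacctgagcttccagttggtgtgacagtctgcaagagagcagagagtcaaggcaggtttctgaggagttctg
Tgtp2 (chr11:49064163-49064462, minus strand): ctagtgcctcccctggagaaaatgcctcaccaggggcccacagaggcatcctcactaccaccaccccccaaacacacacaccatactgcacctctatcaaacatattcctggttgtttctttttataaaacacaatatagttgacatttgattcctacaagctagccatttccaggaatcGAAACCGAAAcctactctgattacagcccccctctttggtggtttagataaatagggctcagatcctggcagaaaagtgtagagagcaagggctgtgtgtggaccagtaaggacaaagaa
Fcgr4 (chr1:171018676-171018975, plus strand): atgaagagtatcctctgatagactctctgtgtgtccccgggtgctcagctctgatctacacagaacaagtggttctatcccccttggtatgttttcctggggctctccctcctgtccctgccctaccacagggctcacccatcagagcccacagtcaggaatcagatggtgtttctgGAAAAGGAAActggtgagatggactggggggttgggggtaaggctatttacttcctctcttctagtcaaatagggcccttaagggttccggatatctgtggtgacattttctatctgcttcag

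Many antigen presentation genes of both classes rose. Of 22 class I genes 16 rose and 1 fell (median 0.72). The largest rise was that of Nlrc5, the transactivator of class I genes, which had 168, 98, 176 and 195 in LPS thymus, against 39.5, 58, 43.5 and 51.8 in PBS thymus (1.67 ± 0.15 log2, adjusted p = 4e-13). The member that fell was Calr, an endoplasmic reticulum chaperone (-0.29 ± 0.09 log2, adjusted p = 0.022), a call lost without LPS mouse 7 and without PBS mouse 2. The peptide loading genes Tapbp and Tap1 changed by 1.3 ± 0.11 log2, adjusted p = 7e-14 and 1.23 ± 0.11 log2, adjusted p = 9e-13. Of 14 class II genes 8 rose and 1 fell (median 0.37). The member that fell was Ciita, the class II transactivator, with 6.55, 13.3, 6.79 and 11.1 in LPS thymus, against 15.5, 21.7, 22.2 and 14 in PBS thymus (-0.92 ± 0.28 log2, adjusted p = 0.013), and its call was lost without LPS mouse 5, PBS mouse 2 or PBS mouse 3, and by DESeq2. The lysosomal proteases Lgmn and Ctss, which process antigen and are high in macrophages, rose by 1.02 and 0.79 on the log2 scale. Of 18 checkpoint and costimulation genes 8 rose (44.4%) and 2 fell (11.1%, near the 8.83% of all genes). The risers included Cd274, which encodes PD-L1 (1.57 ± 0.14 log2, adjusted p = 6.4e-13), Cd86 (1.44 ± 0.18 log2, adjusted p = 5.7e-09) and Pdcd1, which encodes PD-1 (1.43 ± 0.31 log2, adjusted p = 0.00051).

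**Figure D4:**
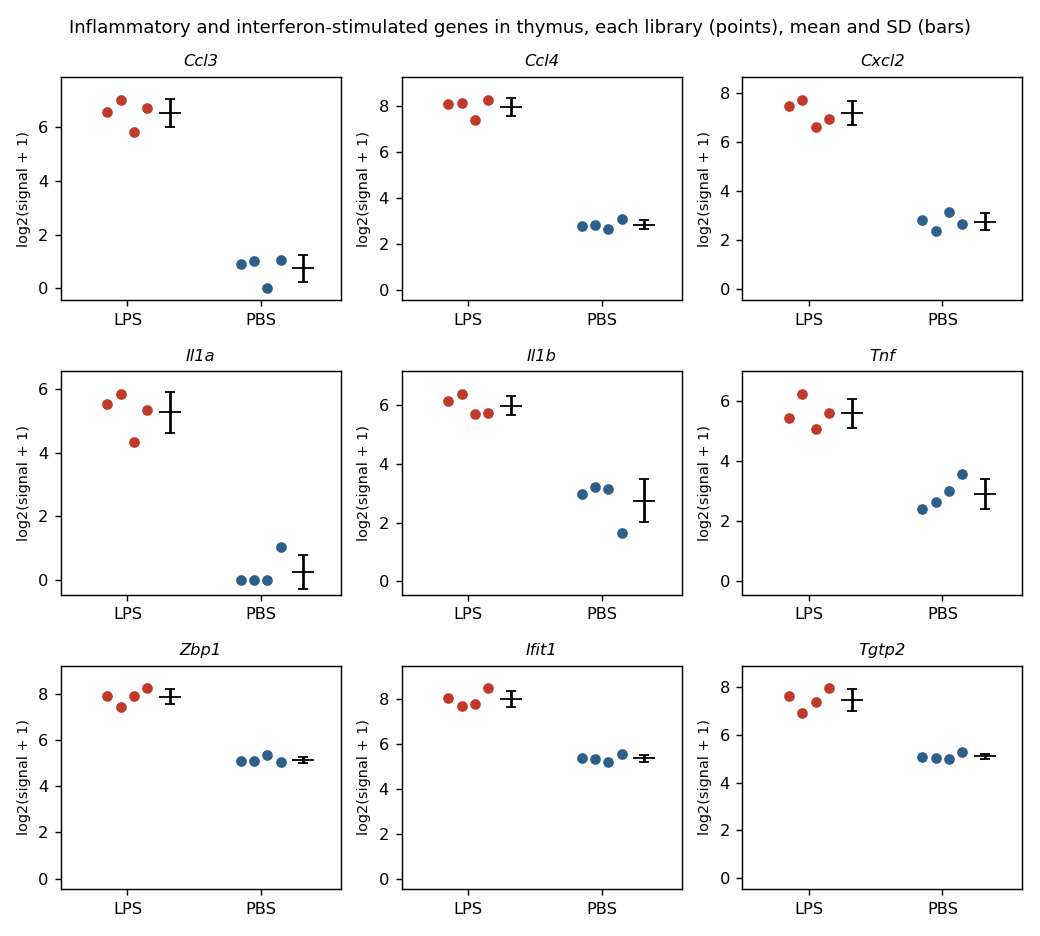
log2(signal + 1) (y axis) of chemokine, cytokine and interferon-stimulated genes in each LPS and PBS thymus library (points), with the mean and SD beside each group of 4 mice. The LPS values lie above the PBS values in all panels, and Ccl3 and Il1a are at or near 0 in PBS libraries.

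Macrophage transcripts rose in some members. Of 22 macrophage genes 13 rose and 1 fell (median 0.55), and the summed signal of the list was 1724 to 2070 in LPS libraries and 1174 to 1284 in PBS libraries. Marco, a scavenger receptor for bacteria, had 44.9, 90.1, 38.5 and 59.5 in LPS thymus, against 4.29, 2.07, 5.32 and 7.56 in PBS thymus (3.37 ± 0.26 log2, adjusted p = 7e-15), and Spic, a transcription factor of heme-recycling macrophages, changed by 2.04 ± 0.31 log2, adjusted p = 9.3e-07. The iron exporter gene Slc40a1 was the one that fell, with 6.55, 12.5, 7.92 and 8.07 in LPS thymus, against 20.6, 22.8, 21.3 and 16.2 in PBS thymus (-1.14 ± 0.26 log2, adjusted p = 0.00078). Of 14 monocyte genes 6 rose and 1 fell, and of 18 dendritic cell genes 8 rose. Of 23 neutrophil genes 7 rose, or 4 by DESeq2, and the other 16 did not pass. The summed signal of the list was 1382 to 1740 in LPS libraries and 794 to 975 in PBS libraries. Much of that gap was Lcn2, an iron-binding protein that epithelium and macrophages make too. Lcn2 had 872, 623, 814 and 894 in LPS thymus, against 240.4, 240.2, 237 and 260.3 in PBS thymus (1.69 ± 0.10 log2, adjusted p = 3.1e-18). The granule genes of the list (Camp, Ngp, Ltf, Mpo and Elane) did not pass. The activated endothelium genes Selp and Icam1, which capture leukocytes, changed by 2.34 ± 0.36 log2, adjusted p = 1.3e-06 and 1.19 ± 0.20 log2, adjusted p = 5.2e-06, and 6 of 13 genes of that list rose. The part of arriving or resident myeloid cells in the inflammatory changes was not tested.

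Several epithelial and secreted products were among the 15 largest rises. Defb1, an antimicrobial peptide of epithelium, had 212, 164, 147 and 168 in LPS thymus, against 7.73, 17.6, 9.76 and 21.6 in PBS thymus (3.61 ± 0.19 log2, adjusted p = 3.1e-21). Mmp13, a collagenase, had 54.3, 17.2, 60.01 and 73.6 in LPS thymus, against 4.29, 5.18, 0.887 and 1.08 in PBS thymus (3.78 ± 0.37 log2, adjusted p = 8.4e-12). Sprr2d, a cornified envelope protein, had 23.4, 15.7, 27.2 and 27.2 in LPS thymus, against 0.859, 0, 0.887 and 1.08 in PBS thymus, where the libraries held 3 counts together, a ratio of 31.2 (95% exact interval 10.4 to 154). Serpina3g, a protease inhibitor from a family of near-identical copies, had 218, 186, 268 and 245 in LPS thymus, against 31.8, 32.1, 20.4 and 20.5 in PBS thymus (3.1 ± 0.15 log2, adjusted p = 2e-22). All LPS values of these genes exceeded all PBS values. Rn7sk, a nuclear RNA that holds the elongation factor P-TEFb and is not normally polyadenylated, had 56.1, 32.9, 13.6 and 45.4 in LPS thymus, against 0.859, 0, 0 and 0 in PBS thymus, which is 1 count in all (4.86 ± 0.47 log2, adjusted p = 8.4e-12). The ratio of its counts per library total was 155 (95% exact interval 27.4 to 6160).

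Some protein folding genes fell. Of 20 heat shock and folding genes 10 fell, against 8.83% of all genes. Another 2 rose (10.0%, near the 9.7% of all genes), and the median log2 change was -0.45. Hsp90aa1, a chaperone that also serves steroid receptors, had 103, 106, 95.1 and 109 in LPS thymus, against 263, 229, 210.3 and 172 in PBS thymus (-1.06 ± 0.12 log2, adjusted p = 3.9e-10). Its cochaperone gene Fkbp4 changed by -1.12 ± 0.13 log2, adjusted p = 2.9e-09, and every LPS library was below every PBS library for both genes. The 2 risers were Cirbp and Rbm3, RNA-binding proteins induced by mild cold. Cirbp had 88.9, 58.8, 152 and 91.8 in LPS thymus, against 44.6, 47.6, 47.9 and 28.1 in PBS thymus (1.15 ± 0.18 log2, adjusted p = 2.8e-06). Rbm3 had 518, 491, 541 and 583 in LPS thymus, against 328, 296, 246 and 248 in PBS thymus (0.94 ± 0.10 log2, adjusted p = 8.7e-11). Of 30 oxidative phosphorylation genes 10 fell (33.3%, against 8.83% of all genes). Of 40 ribosomal protein genes 2 rose (5.0%) and 1 fell (2.5%), below the shares of all genes.

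The LPS change in thymus was set against that in spleen and inguinal lymph node of the same mice, in 1 limma fit of 13729 genes over the 3 organs. The change was higher in thymus than in spleen for 1077 genes (7.84%) and lower for 869 (6.33%), together 14.2%. Against lymph node it was higher for 542 (3.95%) and lower for 416 (3.03%), together 6.98%. With the mouse as a block these counts were 1163, 932, 619 and 473. The DNA replication genes differed by organ more often than the mitosis genes. Of 32 mitosis genes 5 had a lower change in thymus than in spleen and 5 than in lymph node. Their median log2 change was -0.92 in thymus, -0.18 in spleen and -0.2 in lymph node. Of 39 DNA replication genes 24 had a lower change in thymus than in spleen and 17 than in lymph node, and their median log2 change was -0.96 in thymus, 0.32 in spleen and -0.01 in lymph node. Cdca7 shows this: LPS and PBS means were 34.9 ± 6.26 and 195 ± 20.5 in thymus, and 53.2 ± 15.6 and 22 ± 10.1 in spleen, a difference of the log2 changes of -3.78 ± 0.33, adjusted p = 5.3e-12.

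Most class II genes changed differently in thymus. Of 14 class II genes 10 had a higher change in thymus than in spleen and 11 than in lymph node, and the medians were 0.37 in thymus, -1.13 in spleen and -0.50 in lymph node. The invariant chain gene Cd74 and the class II α chain gene H2-Aa, named here after their values were seen, changed by 0.43 and 0.38 on the log2 scale in thymus, -1.18 and -1.18 in spleen, and -0.63 and -0.47 in lymph node. H2-Ab1, which did not pass in thymus, changed by 0.16 there, -1.35 in spleen and -0.76 in lymph node. The transactivator gene Ciita changed by -0.92 in thymus, -1.4 in spleen and -0.74 in lymph node, a negative change in each organ. B cell genes, which carry class II along with them, moved with the class II medians. Their median change was -0.13 in thymus, -1.09 in spleen and -0.60 in lymph node, and the part of B cells was not tested. Of 22 macrophage genes 18 had a higher change in thymus than in spleen and 5 than in lymph node. Their median change was 0.55 in thymus, -0.72 in spleen and 0.11 in lymph node, so the difference from spleen includes a fall there.

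Interferon-stimulated genes had positive median changes in all 3 organs, of 1.6 in thymus, 1.21 in spleen and 2.25 in lymph node. Of 46 genes 9 had a higher and 1 a lower change in thymus than in spleen, while 2 had a higher and 20 a lower change than in lymph node. Ccl3 and Ccl4 changed more in thymus than in either organ. Their LPS means were 95.8 ± 30.6 and 257 ± 61.9 in thymus, 12.7 ± 8.58 and 29.9 ± 18.5 in spleen, and 4.08 ± 1.11 and 16.2 ± 4.48 in lymph node, on tables scaled separately; the differences of the log2 changes from spleen were 4.16 ± 0.55, adjusted p = 2.8e-07 for Ccl3 and 3.49 ± 0.40, adjusted p = 9.2e-09 for Ccl4. Tnf likewise changed more in thymus than in spleen (1.94 ± 0.36, adjusted p = 7.4e-05). Among the thymus genes, Rag1 and Psmb11 had higher means in LPS than in PBS spleen, at a very low level. Rag1 averaged 10.4 ± 2.38 in LPS spleen and 4.5 ± 3.16 in PBS spleen, and Psmb11 3.42 ± 1.36 in LPS spleen, while it was listed at 0 in all PBS spleens.

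**Figure D5:**
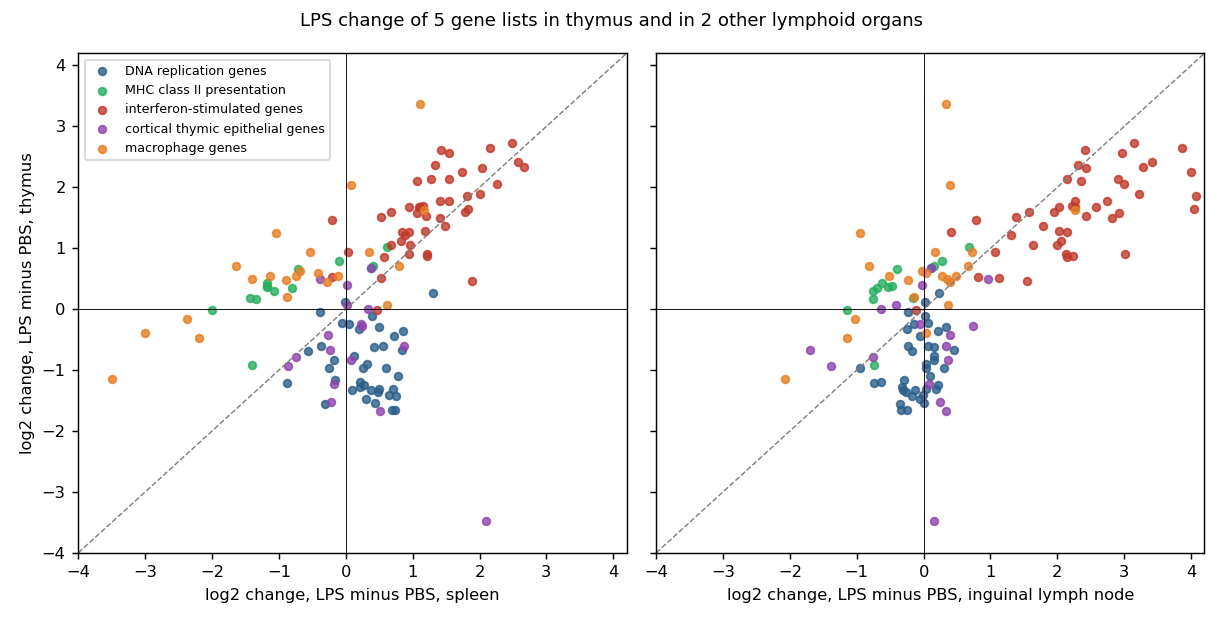
Log2 change between LPS and PBS mice in thymus (y axis) against that in spleen (x axis, left) and inguinal lymph node (x axis, right) for members of 5 gene lists (colours); the dashed line marks equal change. Most DNA replication genes lie below the line with a thymus median of -0.96, most class II genes lie above it with a thymus median of 0.37, and interferon-stimulated genes lie on both sides of it.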

How the data were processed

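RNA of whole thymus from 4 LPS and 4 PBS mice was sequenced as 3′ tags of polyadenylated RNA with 10-base molecular identifiers, per the labels' protocols; whether identifiers were collapsed is not given. Reads refer to mm10, and FastQC, MultiQC and edgeR are named without versions, per the submitters' processing notes; the sources used here give no aligner. The authors deposited a table per tissue of a scaled signal, named CPM although the sum per library falls short of that unit's; dividing each library by its unit step gave whole counts within 0.01, the values behind depth and ratios. Each replicate is a separate mouse. Intervals cover counting error only.

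The test took genes whose signal reached 1 in 4 or more of the 12 thymus libraries and ran on log2(signal + 1) with limma 3.58.1 (trend, R 4.3.3; 3 groups, 9 residual degrees of freedom) and Benjamini-Hochberg adjustment at 0.05. Log2 changes and their standard errors are on this scale, which understates the change of low genes. Differences between organs came from 1 fit over thymus, spleen and inguinal lymph node libraries of all 3 groups, TNF-deficient mice included. It took genes whose signal reached 1 in 4 or more of those libraries. Each tissue table was normalised separately. Same-numbered libraries come from the same mouse; deviations from group means correlated with thymus at -0.01 to 0.07 for spleen and -0.036 to 0.093 for lymph node over 12 mice, and a fit with the mouse as a block was an alternative. The others were a pseudocount of 0.25, no filter, a filter at 5, median-of-ratios scaling, the 2 groups alone, each mouse left out, and edgeR 4.0.16 and DESeq2 1.42.0 on the recovered counts.

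Genes named by the rule passed the test, had a mean of at least 10 in the higher group and no overlap between groups. They were the 15 largest changes each way, up to 4 members per list each way, or the largest differences each way from both spleen and lymph node. The separation of their groups was thus set by the choice, and stating it adds no support. A fixed panel of thymus genes, Cd4 among them, was named whatever its values. Glycam1, Ccl21a, Cd74, H2-Aa, H2-Ab1, H2-K1, Nr4a1, Egr1, Tlr4 and the neutrophil granule genes lie outside that rule and were named after their values were seen. Some genes that the rule took are not reported here. The gene lists were chosen with earlier results of these data known, and they share members. Reads of near-identical copies may have been split, and the strand setting of the counting is not given. Positions are from GENCODE M21 (GRCm38), for 13538 of 13820 symbols.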

Additional observations from a re-analysis of the deposited data

Results flagged for a closer look

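The genes named by the rule or the fixed panel gave 264 groups of 4 libraries. In 19 of them the gap of a library to its nearest neighbour, as a share of the group's range, exceeded Dixon's 95% critical value. Chance sets apart about 1 in 20 such groups. In the LPS group, mouse 6 was highest for Cd8a (0.875) and Cebpd (0.95) and lowest for Mt1 (0.882) and Selp (0.965), and mouse 7 was highest for Bbc3 (0.847), Hmgb2 (0.879) and Herpud1 (0.925). In the PBS group, mouse 4 was highest for Rag2 (0.845), Mt2 (0.91), Il1a (1.0), Lcn2 (0.849) and Cd86 (0.83), and lowest for Tcf7 (0.963) and Cirbp (0.836). Among the other PBS mice, mouse 1 was highest for Ccna2 (0.846) and Rn7sk (1.0) and lowest for Gclc (0.865), mouse 2 was highest for Cycs (0.868), and mouse 3 for Zbp1 (0.855). The values for Il1a and Rn7sk are single counts.

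The LPS change differed between thymus and both other organs, by a test of the difference itself in limma (adjusted p below 0.05, also with the mouse as a block), for 12 genes with the largest differences. They were picked by size among genes that passed the naming criteria in thymus and were called against both organs, 158 higher and 182 lower. Higher in thymus were Ccl3 (by 4.16 log2 against spleen and 5.10 against lymph node), Ccl4 (3.49 and 3.66), Il1a (2.97 and 3.62), Rn7sk (3.68 and 4.15), Defb1 (2.89 and 4.40) and the collagen gene Col27a1 (3.16 and 2.98), whose signal was 46.8, 41.5, 36.2 and 32.3 in LPS thymus, against 12, 10.3, 12.4 and 10.8 in PBS thymus. Col27a1 changed by -1.47 in spleen and -1.29 in lymph node. Lower in thymus were Psmb11 (by -5.57 against spleen and -3.63 against lymph node), Cdca7 (-3.78 and -2.33), Ptcra (-3.13 and -3.34), Rag1 (-2.34 and -2.74) and the meiosis and DNA repair genes Syce2 (-2.24 and -2.11) and Fignl1 (-2.19 and -2.13). Ptcra averaged 1.76 ± 1.43 in LPS spleen and 0.638 ± 0.755 in PBS spleen, values of about 1 count, while its change in thymus was -2.45. Rag1 changed by -0.95 in thymus, 1.39 in spleen and 1.79 in lymph node, and Psmb11 by -3.48 in thymus, 2.1 in spleen and 0.15 in lymph node. The differences for these genes thus include rises of the mean in the other organs at very low signal; Rag1 averaged 19.4 ± 8.94 in LPS lymph node and 4.82 ± 2.06 in PBS lymph node.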

How the results depend on the processing

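None of the 132 genes named by the rule or the fixed panel changed direction under the 15 alternatives. DESeq2 called 766 genes lower, against 1176, and 963 higher, against 1292; 65.1% and 74.3% of the main calls were among them, while edgeR held 94.8% and 96.4%. Leaving out 1 mouse gave 1109 to 1218 genes higher and 882 to 1139 lower in thymus, 843 to 1069 and 667 to 830 for the difference from spleen, and 401 to 482 and 309 to 389 for that from lymph node. The lowest thymus counts came without LPS mouse 8 for higher genes and without PBS mouse 1 for lower genes. With the mouse as a replicate block, 1163 and 932 genes differed from spleen and 619 and 473 from lymph node, and the 12 genes named for differing from both organs kept their calls. Of the 132 genes named by the rule or the panel, 123 were called under every alternative. Ccl21a and the other genes named outside the rule are not counted here. Counts of 1 to 3 members in a list often moved by more than 1.5 times; B cell genes lower were 0 to 3 (3 without PBS mouse 2, 0 without LPS mouse 5 or 8 or PBS mouse 1 and by DESeq2), selection genes lower 1 or 2 (1 without LPS mouse 7 or PBS mouse 3), macrophage genes lower 2 without LPS mouse 6, and cell cycle inhibitors lower 1 without LPS mouse 7. Signals under about 3 units rest on 1 to 3 counts, so low genes in PBS thymus, such as Ccl3 and Il1a, have wide ratios. With 4 mice a group, smaller changes may not have passed.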

Other observations

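Of 22 fibroblast and pericyte genes 4 rose (18.2%, against 9.7% of all genes), 2 fell (9.1%, near the 8.83% of all genes) and 16 did not pass. Dcn, the collagen-binding proteoglycan decorin, had 516, 487, 431 and 452 in LPS thymus, against 208, 185, 186 and 216 in PBS thymus (1.24 ± 0.10 log2, adjusted p = 1e-13). The pericyte genes Acta2 and Rgs5 rose less (0.95 ± 0.16 log2, adjusted p = 7.2e-06 and 0.63 ± 0.16 log2, adjusted p = 0.0021), while Angptl2, a secreted angiopoietin-like protein, had 5.61, 11, 9.06 and 9.08 in LPS thymus, against 19.8, 17.6, 16.9 and 28.1 in PBS thymus (-1.16 ± 0.28 log2, adjusted p = 0.0013). The tissue inhibitor of metalloproteinases Timp1 changed by 2.33 ± 0.21 log2, adjusted p = 7.2e-13. Of 25 AP-1 and immediate-early genes 17 rose and 1 fell, among them Fos, with 66.4, 47, 54.4 and 37.3 in LPS thymus, against 18.9, 10.3, 15.1 and 30.2 in PBS thymus (1.48 ± 0.22 log2, adjusted p = 6e-07), and the survival gene Ier3 (2.02 ± 0.24 log2, adjusted p = 3.5e-09).

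Of 14 genes of pyroptosis and necroptosis 6 rose and 1 fell. Casp4, which encodes caspase-11, the cytosolic LPS receptor of mice, had 55.2, 39.97, 46.4 and 54.5 in LPS thymus, against 14.6, 16.6, 10.7 and 18.4 in PBS thymus (1.65 ± 0.19 log2, adjusted p = 1e-09), and Mlkl, the membrane executor of necroptosis, had 9.36, 12.5, 11.3 and 7.06 in LPS thymus, against 3.44, 3.11, 4.44 and 1.08 in PBS thymus (1.52 ± 0.36 log2, adjusted p = 0.0014). Gzmb, the granzyme of cytotoxic cells, changed by 1.62 ± 0.21 log2, adjusted p = 2.9e-08. The largest falls included genes outside the lists. Crip3, which encodes thymus LIM protein, had 24.3, 31.4, 22.6 and 43.4 in LPS thymus, against 153, 139.8, 126 and 121 in PBS thymus (-2.15 ± 0.18 log2, adjusted p = 7e-14). Tdrd5, known from the germ line, had 12.2, 9.4, 9.06 and 8.07 in LPS thymus, against 37.8, 36.2, 48.8 and 48.6 in PBS thymus (-2.04 ± 0.22 log2, adjusted p = 2.4e-10). Plcb2, a phospholipase of G protein signalling, changed by -2.0 ± 0.27 log2, adjusted p = 5.3e-08, and the small GTPase gene Diras2 by -2.47 ± 0.34 log2, adjusted p = 1.4e-07; no LPS value of these 4 genes reached the lowest PBS value. The endoplasmic reticulum stress gene Herpud1 and the glutathione synthesis gene Gclc rose (0.9 ± 0.12 log2, adjusted p = 1.1e-07 and 0.98 ± 0.14 log2, adjusted p = 1.8e-07).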
